A study of Mus musculus with 178 samples.

Results

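The genes described here are the mouse receptors for the constant part of IgG and the signalling chain that the activating ones share. They are Fcgr1, Fcgr3 and Fcgr4, which activate, Fcgr2b, which inhibits, and Fcer1g, the common gamma chain. They were found by their symbols in the deposited table of counts and make up 5 of its 55450 gene rows. The table holds whole blood of 45 C57BL/6J mice of both sexes that carried 4MOSC1 tumors, a carcinogen-derived line of mouse oral squamous carcinoma, in the tongue or the buccal mucosa. All mice were given the PD-1 antibody RMP1-14, so no untreated group is compared here. Blood was drawn on Day 4, which the study's design gives as before treatment, and on Days 9, 17 and 24. The labels name 15 responders, with 15, 15, 14 and 15 libraries on the 4 days, and 30 non-responders, with 29, 30, 30 and 30 libraries, so 178 libraries in all. Mice are named by response group (R or NR) and label number. The Day 17 library of mouse NR_7203 is labelled as a responder, whereas its other libraries are labelled as non-responders, and it was counted with the non-responders. Counted as a responder, it ended 1 call, that of Fcgr3 on Day 17 in responders.

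Fc gamma receptors bind IgG that coats cells, particles or immune complexes. Fcgr1 binds single IgG molecules tightly and is carried by monocytes and macrophages. Fcgr3 binds complexes and is carried by monocytes, neutrophils and natural killer (NK) cells, and Fcgr4 by monocytes and neutrophils. These activating receptors need the Fcer1g chain, whose ITAM motif recruits the kinase Syk and which also holds the receptors at the cell surface. Fcgr2b carries an inhibitory ITIM motif that recruits the phosphatase Inpp5d, and it is the only Fc gamma receptor of B cells. The ratio of activating receptors to Fcgr2b is therefore used as a measure of how readily a cell answers IgG. Antibodies against PD-1 can themselves be bound by these receptors.

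The members lie on 2 chromosomes of GRCm38. Fcgr1 (ENSMUSG00000015947.10) is at chr3:96282909-96293969 on the minus strand. The other 4 lie within 276 kb of chromosome 1. Fcgr2b (ENSMUSG00000026656.15) is at chr1:170958617-170976547 on the minus strand, Fcgr4 (ENSMUSG00000059089.4) at chr1:171018920-171029761 on the plus strand, Fcgr3 (ENSMUSG00000059498.13) at chr1:171051174-171064935 on the minus strand and Fcer1g (ENSMUSG00000058715.11) at chr1:171229572-171234365 on the minus strand.

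The sequences before the start sites are shown to set the activating receptors beside Fcgr2b, which also rose on Day 9, and Fcer1g. RefSeq (GRCm38.p6) gave 6 promoters for all 5 members, 2 of them for Fcgr3, and the first listed for each member is printed 5′ to 3′ over the 250 bases before the start. Capitals mark matches, on either strand, to GAGGAA, the core bound by the myeloid factor PU.1, which reads TTCCTC on the other strand. The windows are chr3:96293970-96294219 on the minus strand for Fcgr1, chr1:171059404-171059653 on the minus strand for Fcgr3, chr1:171018676-171018925 on the plus strand for Fcgr4, chr1:170976072-170976321 on the minus strand for Fcgr2b and chr1:171234350-171234599 on the minus strand for Fcer1g.
Fcgr1: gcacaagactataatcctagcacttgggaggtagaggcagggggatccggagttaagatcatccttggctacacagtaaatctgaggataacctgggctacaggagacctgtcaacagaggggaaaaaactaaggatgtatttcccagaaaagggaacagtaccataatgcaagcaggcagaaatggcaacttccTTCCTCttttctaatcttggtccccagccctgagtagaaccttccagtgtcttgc
Fcgr3: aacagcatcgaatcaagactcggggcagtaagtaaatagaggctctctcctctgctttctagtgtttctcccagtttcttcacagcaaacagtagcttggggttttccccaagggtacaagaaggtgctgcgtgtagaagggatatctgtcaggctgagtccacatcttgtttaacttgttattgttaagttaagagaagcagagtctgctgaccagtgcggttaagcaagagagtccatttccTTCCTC
Fcgr4: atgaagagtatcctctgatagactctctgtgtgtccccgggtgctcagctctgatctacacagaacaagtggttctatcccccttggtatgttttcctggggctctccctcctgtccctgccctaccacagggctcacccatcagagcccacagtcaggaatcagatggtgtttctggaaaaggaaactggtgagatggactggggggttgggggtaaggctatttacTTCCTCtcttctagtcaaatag
Fcgr2b: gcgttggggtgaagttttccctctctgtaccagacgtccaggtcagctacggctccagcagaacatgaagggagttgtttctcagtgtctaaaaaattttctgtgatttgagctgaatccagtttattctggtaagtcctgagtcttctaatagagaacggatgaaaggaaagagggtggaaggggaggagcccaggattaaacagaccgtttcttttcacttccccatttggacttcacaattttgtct
Fcer1g: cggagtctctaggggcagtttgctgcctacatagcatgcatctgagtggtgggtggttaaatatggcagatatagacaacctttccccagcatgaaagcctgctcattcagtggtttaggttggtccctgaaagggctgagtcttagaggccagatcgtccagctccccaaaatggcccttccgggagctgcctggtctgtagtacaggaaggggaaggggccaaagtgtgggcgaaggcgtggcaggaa
GAGGAA was found in the windows of the activating receptors, at -55 to -50 in Fcgr1, -6 to -1 in Fcgr3 and -22 to -17 in Fcgr4, and in neither Fcgr2b nor Fcer1g, and 23.3% of all 32851 promoter windows of this length hold it. A match describes letters only, and no binding was measured.

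Fcgr3 and Fcgr2b also share coding sequence, which bears on how their reads can be told apart. The longest identical run is 129 bases, at bases 263 to 391 of the 801 coding bases of Fcgr3 (chr1:171054167-171057792, exons 3 to 4 of Fcgr3-201) and at bases 278 to 406 of the 1020 of Fcgr2b (chr1:170966674-170968081, exons 3 to 4 of Fcgr2b-201). Both genes read it from the minus strand, and it is spliced from both exons, within the part that codes for the IgG-binding domains.
Shared run of Fcgr3 and Fcgr2b: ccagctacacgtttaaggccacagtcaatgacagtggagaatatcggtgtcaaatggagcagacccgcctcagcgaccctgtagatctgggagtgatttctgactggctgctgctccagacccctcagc
Of all 50-base windows of the coding sequence, 22.1% of Fcgr3 and 17.1% of Fcgr2b were found in the other gene, and none was shared between any other pair of members. The deposited counts of both genes were fractions in the same 29 of 178 libraries, and in all 29 the sum of both counts was whole within 0.011. Reads were thus split between the pair in part, and the levels of Fcgr3 and Fcgr2b carry this uncertainty.

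Per length, Fcer1g was by far the most abundant member. The order of the mean TPM (transcript share of a library, scaled by the authors for gene length and library) was Fcer1g, Fcgr3, Fcgr2b, Fcgr4 and Fcgr1 in all 8 groups of response and day. Fcer1g was the highest and Fcgr1 the lowest of the members in 178 of 178 libraries. In non-responders on Day 4, TPM was 24.3 ± 8.68 for Fcer1g, 4.76 ± 2.06 for Fcgr3, 3.93 ± 2.19 for Fcgr2b, 1.72 ± 0.949 for Fcgr4 and 0.361 ± 0.169 for Fcgr1 (SD, n = 29). In responders on Day 4 it was 19.0 ± 8.56 for Fcer1g, 3.89 ± 2.84 for Fcgr3, 2.44 ± 1.89 for Fcgr2b, 1.30 ± 1.01 for Fcgr4 and 0.313 ± 0.256 for Fcgr1 (SD, n = 15). The ranges of Fcgr3 and Fcgr2b overlapped in every group, and Fcgr3 was above Fcgr2b in 154 of 178 libraries. Fcgr4 was above Fcgr2b in 10. The inhibitory receptor thus lay between the activating receptors, below Fcgr3 and above Fcgr4 and Fcgr1.

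**Figure D1:**
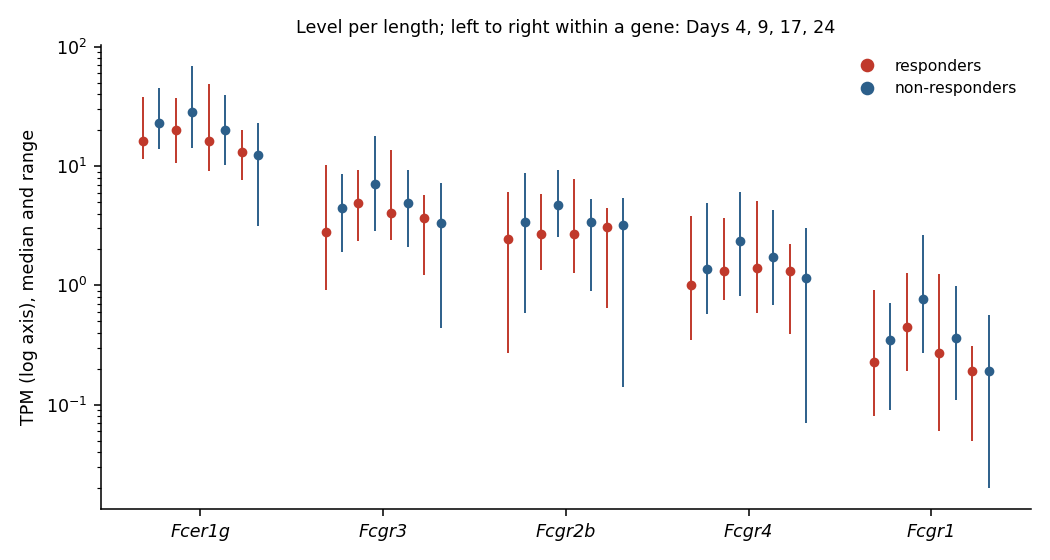
TPM of each member on a log10 axis, by day and response. Points are the medians of the groups, and lines run from the lowest to the highest library. Single libraries are not drawn. Fcer1g was above and Fcgr1 below the other members in all 178 libraries, while the ranges of Fcgr3 and Fcgr2b overlap.

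TPM includes the transcripts of haemoglobin, which took 80.7% ± 4.1 (SD, n = 178) of the counts. The share was 83.0% ± 4.1 in responders and 77.8% ± 5.2 in non-responders on Day 4, and 82.7% ± 3.3 and 78.2% ± 3.7 on Day 9. Libraries were therefore compared on log2 CPM, library-scaled counts adjusted by the trimmed mean of M values (TMM), which is centred on the middle of the genes. Total counts ranged from 26058958 to 82208665 per library (median 51971365), and those outside haemoglobin from 4536692 to 22177360. Counts per library ranged from 166 to 2899 for Fcer1g, from 64 to 1940 for Fcgr3, from 37 to 1891 for Fcgr2b, from 9 to 700 for Fcgr4 and from 3 to 637 for Fcgr1, and no member was at 0 in any library. One library stood apart, that of mouse NR_7224 on Day 24, whose TMM factor was 0.0848, while the next lowest was 0.266. The mice carry 4-digit numbers (11 responders and 7 non-responders) or 3-digit numbers (4 and 23), so the number series and response overlap in part and values within each series are given.

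Each day's responders were set against its non-responders to ask whether Fc receptor transcripts in blood differ with response. On Day 4, before treatment, Fcgr3 was higher in responders. Its log2 CPM ran from 3.06 to 4.10 with a median of 3.45 in 15 responders, and from 2.39 to 3.67 with a median of 3.16 in 29 non-responders. The ranges overlapped, with the upper end held by responders and the lower end by non-responders. The log2 difference was 0.37 (SE 0.092; 95% interval 0.19 to 0.56; edgeR's quasi-likelihood test, Benjamini-Hochberg adjusted p = 0.00619 over 12620 genes), a fold of 1.29. Fcgr3 was the only member called, 1 of 5, where 7.42% of all genes tested were called.

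The chain that Fcgr3 needs showed a larger difference with a wider spread. Fcer1g on Day 4 ran from 3.91 to 5.56 with a median of 4.35 log2 CPM in responders, and from 3.50 to 5.30 with a median of 3.99 in non-responders. The groups overlapped over most of their range. The highest levels of both groups were in libraries with low TMM factors. In mice R_7206, R_7210, R_311 and R_315 the levels were 5.56, 5.32, 5.29 and 5.15 and the factors 0.266, 0.427, 0.457 and 0.336, and in mice NR_329 and NR_321 the levels were 5.30 and 5.25 and the factors 0.498 and 0.532. Fcgr2b was between 2.59 and 2.98 in these 6 libraries. Mouse R_7208, whose Day 4 factor of 0.4655 was below those of NR_329 and NR_321, had a lower Fcer1g level, 4.72, with Fcgr2b at 3.01. The part of the scaling in the difference was not tested. The log2 difference of 0.47 (SE 0.16, edgeR adjusted p = 0.0658) missed the threshold of 0.05. It passed with DESeq2, at 0.47 and an adjusted p of 0.0461. With the number series as a covariate it was 0.69 (edgeR adjusted p = 0.0103). The other activating receptors had log2 differences of 0.38 for Fcgr1 (SE 0.16, edgeR adjusted p = 0.142) and 0.26 for Fcgr4 (SE 0.17, edgeR adjusted p = 0.369). For the inhibitory Fcgr2b it was -0.063 (95% interval -0.27 to 0.15, edgeR adjusted p = 0.746). Within the number series, the Day 4 difference of Fcgr3 was 0.41 in 4-digit mice (edgeR adjusted p = 0.165) and 0.41 in 3-digit mice (edgeR adjusted p = 0.162), and that of Fcer1g 0.71 and 0.62 (edgeR adjusted p = 0.165 and 0.261). Both kept their direction within each series, and neither passed there. The Fcgr2b difference was further below 0 than in the pooled mice, at -0.23 and -0.30 in the 2 series (edgeR adjusted p = 0.279 and 0.429) and -0.25 with the series as a covariate (edgeR adjusted p = 0.0954). Fcgr4 stood at 0.51 and 0.25 (edgeR adjusted p = 0.169 and 0.684), with 0.42 under the covariate (edgeR adjusted p = 0.11), and Fcgr1 at 0.31 and 0.36 (edgeR adjusted p = 0.467 and 0.473), with 0.34 (edgeR adjusted p = 0.166).

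The direction on Day 4 was the opposite in TPM, apart from that of Fcgr2b. With DESeq2, and with haemoglobin genes removed before scaling, every member kept its direction. On log2(TPM + 1), which follows the haemoglobin share, Fcgr3 was 0.34 lower in responders on that scale, at -0.34 (limma, adjusted p = 0.0932), with the median of all genes at -0.26. On the same scale Fcer1g was at -0.38 (limma, adjusted p = 0.0281), Fcgr4 at -0.28, Fcgr1 at -0.063 and Fcgr2b at -0.58 (limma, adjusted p = 0.0249). On Day 9 all 5 were lower in responders in TPM and called, from -0.27 for Fcgr1 to -0.61 for Fcgr2b, with the median gene at -0.24. Relative to the median gene, Fcgr2b was the lowest of the members on Day 4 under both scalings. On log2(TPM + 0.1) the median gene of Day 4 was at -0.62, with Fcgr2b below it at -0.88. The other members lay above it, at -0.26 for Fcgr1, -0.39 for Fcer1g, -0.45 for Fcgr3 and -0.51 for Fcgr4.

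Markers of some cells that carry these receptors also differed on Day 4, where 7.42% of all genes were called. Of the classical monocyte markers, 4 of 10 were higher in responders and none lower (median 0.37). Of the neutrophil markers 4 of 9 tested were higher and none lower (median 0.43). The summed neutrophil level ran from 179.6 to 532.9 CPM in responders and from 129.8 to 340.3 in non-responders, and the summed classical monocyte level from 259.1 to 453.6 and from 255 to 407. Red cell markers were higher in responders for 7 of 10, with summed levels from 460600 to 3382000 and from 284600 to 1786000 CPM, and 2 of 10 B cell markers were lower. Of the nonclassical monocyte markers 1 of 10 was higher (median 0.079), and no NK cell marker of 10 was called. Platelet markers had a median of 0.41, with 0 of 10 called. Of the basophil and mast cell markers 1 of 6 tested was higher and none lower (median 0.31). The part of these cells in the differences of Fcgr3 and Fcer1g was not tested. In whole blood, fewer cells of a type and less RNA per cell cannot be told apart.

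On the later days no member differed between responders and non-responders by edgeR. On Day 9, 0 of 5 were called, against 13.4% of all genes. Day 17 had 0 of 5, against 1.99%, and Day 24 had 0 of 5, against 8.55%. At an unadjusted p under 0.05, Fcer1g was higher in responders on Day 9, by 0.17 (p = 0.0138, edgeR adjusted p = 0.0832), and on Day 17, by 0.21 (p = 0.0132, edgeR adjusted p = 0.131), and no other member was. With the number series as a covariate these were 0.12 on each day (edgeR adjusted p = 0.459 and 0.707), and in 3-digit mice alone they had the other sign, -0.024 and -0.097. On Day 9 platelet markers were higher in responders for 7 of 10 (median 0.39) and red cell markers for 10 of 10 (median 0.90), and the part of these cells in the Fcer1g values was not tested. DESeq2 also called 0 of 5 on each of these days. On Day 24 the Fcer1g difference was 0.15 (edgeR adjusted p = 0.439), and without the library of mouse NR_7224, whose Fcer1g level of 5.30 log2 CPM was the highest of that day, it was 0.22 (edgeR adjusted p = 0.0286). The intervals for Fcgr2b were narrow, from -0.19 to 0.045 on Day 9, -0.17 to 0.056 on Day 17 and -0.14 to 0.058 on Day 24. For Fcgr3 they ran from -0.18 to 0.17 on Day 9, from -0.042 to 0.40 on Day 17, and on Day 24 from -0.21 to 0.19.

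**Figure D2:**
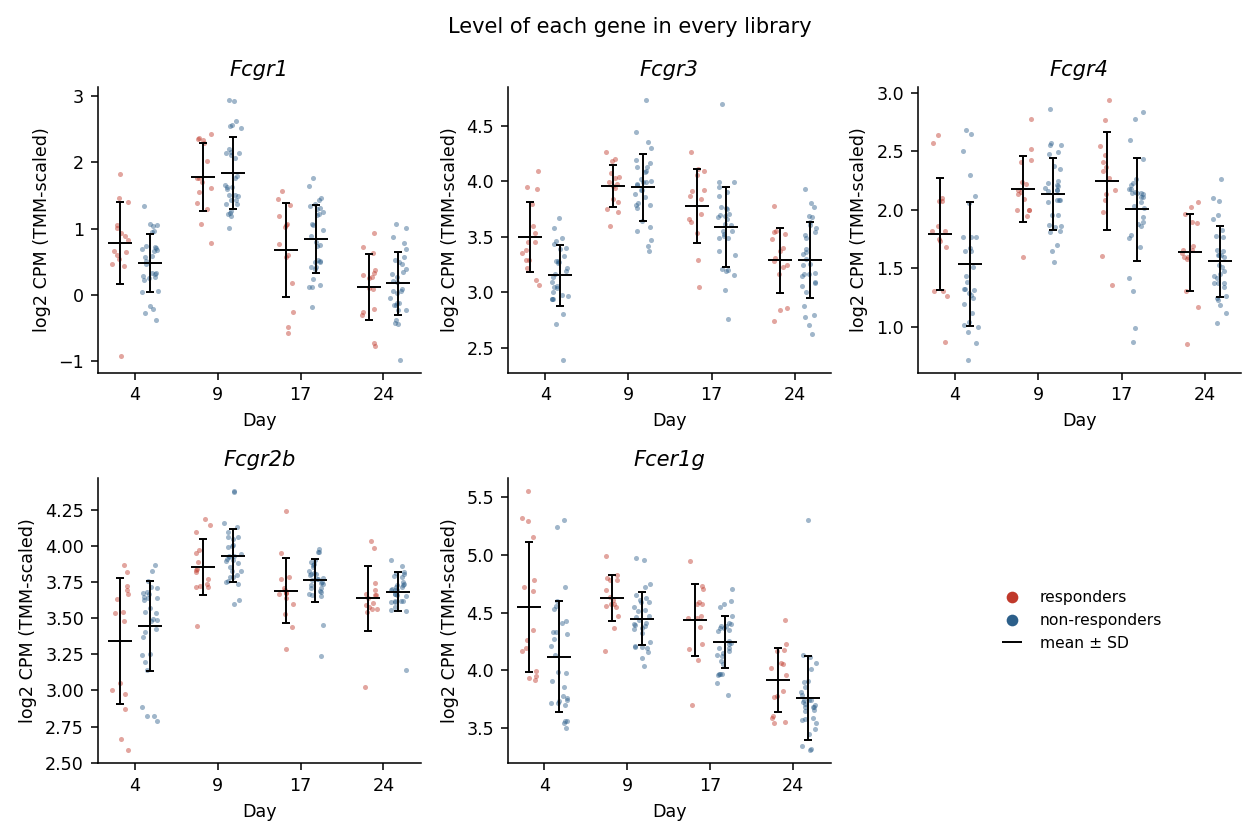
TMM-scaled log2 CPM of each member by day, with one point per library, in responders and non-responders and their means with SD. Fcgr1, Fcgr3 and Fcgr4 rise from Day 4 to Day 9 in both groups, and Fcer1g is lowest on Day 24.

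The libraries of each later day were then compared with Day 4 within each response group, to follow the receptors under treatment. Every activating receptor was higher on Day 9 in both groups, as was Fcgr2b, and in log2 CPM the rise of Fcgr1 was the largest of the members in each. On log2(TPM + 1) that of Fcgr3 was larger, at 0.37 in responders and 0.64 in non-responders, against 0.25 and 0.46 for Fcgr1. The added 1 exceeds the mean TPM of Fcgr1, which was 0.361 on Day 4 and 0.928 on Day 9 in non-responders. On log2(TPM + 0.1) the rise of Fcgr1 in responders was 0.75, and that of Fcgr3 was at most 0.511 under all settings. Of the 5 members, 4 were called in responders on Day 9, where 27.7% of all genes were, and 5 of 5 in non-responders, where 50.8% were. All calls were upward, against 13.5% of genes called higher in responders and 23.3% in non-responders. On log2(TPM + 1) and log2(TPM + 0.1), 0 of 5 were called for each change in responders, where Fcgr1 on Day 9 stood at 0.25 and 0.75. In non-responders both scales called 4 on Day 9, 0 on Day 17 and 3 on Day 24. Since all mice were treated and no untreated mice are compared, time after grafting, tumor growth, repeated bleeding and treatment cannot be told apart.

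Fcgr1, the high-affinity receptor, moved most on Day 9 in log2 CPM. In non-responders its log2 CPM ran from -0.38 to 1.34 with a median of 0.51 on Day 4, and from 1.01 to 2.93 with a median of 1.64 on Day 9. The ranges overlapped between 1.01 and 1.34, and Fcgr1 was higher on Day 9 in 29 of 29 mice with both libraries. The log2 change was 1.43 (SE 0.13, edgeR adjusted p = 4.09e-18), a fold of 2.69. In responders it ran from -0.92 to 1.82 on Day 4, with a median of 0.83, and from 0.79 to 2.43 on Day 9, with a median of 1.76, and was higher in 14 of 15 mice. The change was 1.00 there (SE 0.20, edgeR adjusted p = 1.04e-04), a fold of 2.00. The rise did not last. On Day 17 Fcgr1 was 0.40 above Day 4 in non-responders (SE 0.13, edgeR adjusted p = 0.00771) and at -0.058 in responders (edgeR adjusted p = 0.87). On Day 24 it fell below Day 4 in responders, by a log2 change of -0.73 (SE 0.21, edgeR adjusted p = 0.0121), and was higher in 1 of 15 mice. In non-responders the Day 24 change was -0.30 (edgeR adjusted p = 0.0592), with 8 of 29 mice higher, and with the mouse as a block it passed, at -0.30 (edgeR adjusted p = 0.0439).

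Fcgr3, the most abundant activating receptor, rose by 0.80 in non-responders on Day 9 (SE 0.085, edgeR adjusted p = 1.43e-14), a fold of 1.74. Its log2 CPM went from a range of 2.39 to 3.67 with a median of 3.16 to one of 3.37 to 4.73 with a median of 3.97, and 29 of 29 mice were higher. In responders, whose Day 4 levels were higher in log2 CPM and lower on log2(TPM + 1), by -0.34, the change was 0.45 (SE 0.10, edgeR adjusted p = 6.86e-04), and 13 of 15 mice were higher. On Day 9 the mean level was 3.96 ± 0.19 in responders (SD, n = 15) and 3.94 ± 0.31 in non-responders (SD, n = 30). On Day 17 Fcgr3 was still above Day 4, by 0.45 in non-responders (edgeR adjusted p = 5.07e-06) and by 0.28 in responders (edgeR adjusted p = 0.0425). The call in responders was lost when any of 8 mice was left out, and with the library of mouse NR_7203 counted as a responder, at 0.26 (edgeR adjusted p = 0.052). With no filter on low counts it was 0.27 (edgeR adjusted p = 0.0825). On Day 24 it was at -0.22 in responders (edgeR adjusted p = 0.122) and at 0.14 in non-responders (edgeR adjusted p = 0.183).

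Fcgr4 rose less and held to Day 17. In non-responders its log2 CPM ran from 0.72 to 2.69 with a median of 1.38 on Day 4, from 1.55 to 2.87 with a median of 2.17 on Day 9 and from 0.87 to 2.84 with a median of 2.11 on Day 17. The ranges overlapped widely, and 23 of 29 mice were higher on each of these days. The log2 changes were 0.56 on Day 9 (SE 0.11, edgeR adjusted p = 2.44e-06) and 0.44 on Day 17 (SE 0.11, edgeR adjusted p = 2.98e-04). In responders they were 0.35 (SE 0.14, edgeR adjusted p = 0.0481) and 0.44 (SE 0.14, edgeR adjusted p = 0.0144). The Day 9 call in responders was lost without any 1 of 10 mice, and also with haemoglobin genes removed before scaling, at 0.35 (edgeR adjusted p = 0.0515), and with no filter on low counts, at 0.35 (edgeR adjusted p = 0.0792). On Day 24 Fcgr4 stood at -0.19 in responders and at -0.022 in non-responders, neither called (edgeR adjusted p = 0.36 and 0.894).

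Fcgr2b, the inhibitory receptor, rose on Day 9 in both groups and was called above Day 4 on all later days in non-responders. The Day 9 change was 0.47 in responders (SE 0.10, edgeR adjusted p = 2.89e-04) and 0.46 in non-responders (SE 0.049, edgeR adjusted p = 1.94e-14), with 13 of 15 and 29 of 29 mice higher. The lowest Day 4 levels of responders, from 2.59 to 2.98 log2 CPM, were in the low-factor libraries of mice R_7206, R_7210, R_311 and R_315. The medians of responders were 3.535 on Day 4 and 3.831 on Day 9. The part of the low-factor libraries in the changes of responders was not tested. In non-responders the levels ran from 2.79 to 3.87 log2 CPM on Day 4 and from 3.60 to 4.38 on Day 9, with medians of 3.53 and 3.91. On Day 17 the changes were 0.29 (edgeR adjusted p = 0.027) and 0.28 (edgeR adjusted p = 1.58e-06), and the call in responders was lost without any 1 of 6 mice and with no filter on low counts, at 0.28 (edgeR adjusted p = 0.0697). On Day 24 Fcgr2b was the only member called above Day 4 in non-responders, by 0.20 (SE 0.05, edgeR adjusted p = 3.71e-04). In responders the Day 24 change was 0.24 (edgeR adjusted p = 0.0839). In TPM the Day 17 and Day 24 values of Fcgr2b in non-responders had the other sign, -0.043 and -0.15 on log2(TPM + 1), and neither was called.

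Fcer1g, the shared chain, fell by Day 24 in both groups. In responders its Day 9 change was -0.0028 (95% interval -0.27 to 0.26, edgeR adjusted p = 0.991) and 8 of 15 mice were higher. The medians were 4.35 log2 CPM on Day 4 and 4.61 on Day 9. The Day 4 levels include the low-factor libraries of mice R_7206, R_7210, R_311 and R_315, at 5.56, 5.32, 5.29 and 5.15. These mice stood at 4.8, 4.8, 4.6 and 4.4 on Day 9. In non-responders Fcer1g rose by 0.26 (SE 0.093, edgeR adjusted p = 0.0124), with 21 of 29 mice higher. On Day 17 it was at -0.19 in responders and at 0.047 in non-responders (edgeR adjusted p = 0.305 and 0.718). On Day 24 the levels of responders went from a range of 3.91 to 5.56 with a median of 4.35 log2 CPM on Day 4 to one of 3.55 to 4.43 with a median of 3.96, a log2 change of -0.72 (SE 0.13, edgeR adjusted p = 3.14e-04) with 2 of 15 mice higher. In non-responders they went from 3.50 to 5.30 with a median of 3.99 to 3.31 to 5.30 with a median of 3.70, a change of -0.42 (SE 0.093, edgeR adjusted p = 1.11e-04) with 9 of 29 mice higher. Mice R_7206, R_7210, R_311 and R_315 stood at 4.06, 4.17, 4.43 and 3.59 on Day 24. Leaving out 1 mouse at a time gave Day 24 changes from -0.79 to -0.62 in responders. The part of the low-factor Day 4 libraries in the changes of Fcer1g was not tested. On Day 17, 3 of 5 members were called in responders and 4 of 5 in non-responders, against 25.6% and 46.1% of all genes, and on Day 24 it was 2 of 5 in each group, against 17.4% and 48.7%. With a fold of at least 1.5 required as well, the calls were 0 of 5 for the response on Day 4, against 4.21% of genes. In responders 1, 0 and 2 members passed on Days 9, 17 and 24, against 7.06%, 4.5% and 3.15%, and in non-responders 2, 0 and 0, against 9.89%, 4.96% and 6.03%.

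**Figure D3:**
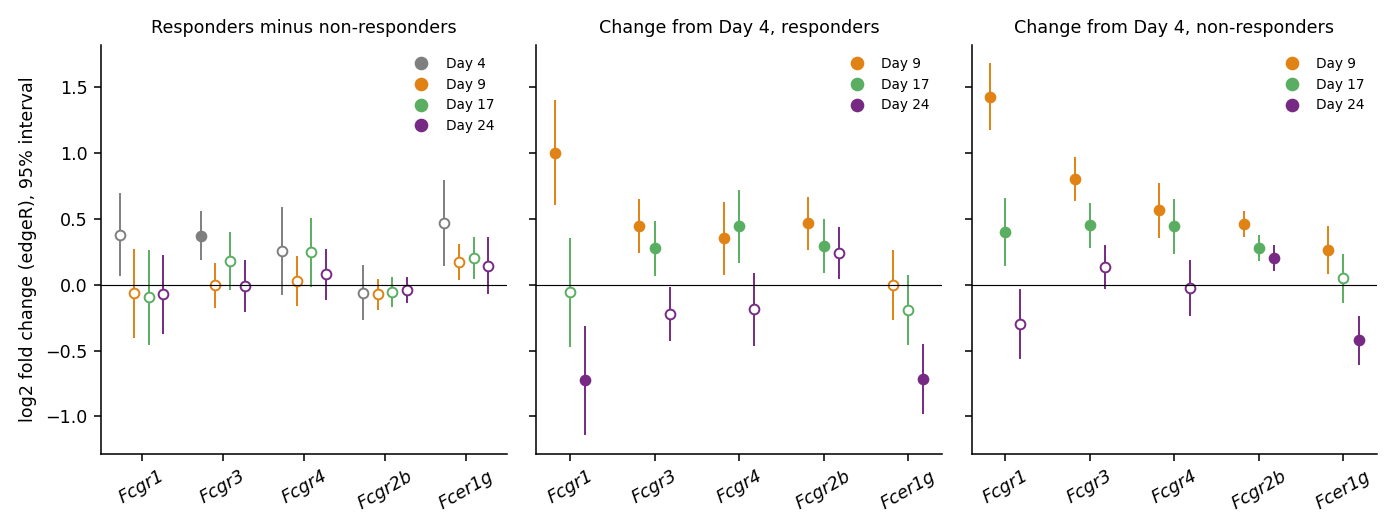
Log2 fold changes of each member with 95% intervals, for the response difference on each day and for the change from Day 4 in responders and non-responders. The Day 9 changes of Fcgr1 (1.00 and 1.43) stand highest, and the Day 24 changes of Fcer1g (-0.72 and -0.42) lie below 0.

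Cell type markers moved over the same days, beside the shares of all genes called that are given above, 27.7% in responders and 50.8% in non-responders on Day 9 and 17.4% and 48.7% on Day 24. On Day 9 classical monocyte markers rose for 9 of 10 in non-responders and 7 of 10 in responders, where 1 fell. Neutrophil markers rose for 9 of 10 and 5 of 10, and none fell. In non-responders the summed classical monocyte level went from 255 to 407 CPM on Day 4 to 365.7 to 705.8 on Day 9, and the neutrophil level from 129.8 to 340.3 to 227.2 to 697.3. In responders the classical monocyte sum went from 259.1 to 453.6 to 337 to 633.4 and the neutrophil sum from 179.6 to 532.9 to 248.1 to 567.9. Nonclassical monocyte markers rose for 6 of 10 in non-responders, where 1 fell, and for 1 of 10 in responders. B cell markers, cells in which Fcgr2b is the Fc gamma receptor, fell for 10 of 10 in non-responders and 7 of 10 in responders on the same day, while Fcgr2b rose. T cell markers fell for 10 of 10 in both groups. Markers of basophils and mast cells, which also use Fcer1g, rose for 5 of 8 in responders and 6 of 7 tested in non-responders (medians 0.84 and 1.04), and platelet markers fell for 1 of 10 and 9 of 10. On Day 17, where 25.6% of all genes were called in responders and 46.1% in non-responders, neutrophil markers rose for 6 of 10 and 8 of 10, with 1 lower in each. Classical monocyte markers rose for 2 of 10 in responders, where 2 fell, and for 6 of 10 in non-responders, where 1 fell. B cell markers fell for 8 of 10 in both groups, and T cell markers for 8 of 10 and 10 of 10. NK cell markers fell for 2 of 10 in responders and 8 of 10 in non-responders. Nonclassical monocyte markers rose for 3 of 10 in responders, and in non-responders 4 rose and 2 fell. On Day 24 NK cell markers fell for 9 of 10 in both groups, from summed levels of 39.65 to 97.53 CPM on Day 4 to 24.68 to 41.96 in responders and from 28.87 to 93.33 to 13.07 to 50.77 in non-responders. On the same day T cell markers fell for 6 of 10 in responders and 9 of 10 in non-responders, and platelet markers for 3 of 10 and 9 of 10. Classical monocyte markers fell for 3 of 10 in responders, and in non-responders 2 fell and 2 rose. In non-responders nonclassical monocyte markers fell for 5 of 10 and rose for 1, and neutrophil markers rose for 5 of 10 and red cell markers for 9 of 10. B cell markers fell for 5 of 10 and rose for none in non-responders, where Fcgr2b was called higher, and 3 rose and 2 fell in responders. Of all the markers, the median library held 0 counts only of Epx, an eosinophil gene. The part of these cells in the receptor changes was not tested.

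Whether the changes differed between responders and non-responders was tested with an interaction term for response and day in 1 fit of 178 libraries. No member passed: 0 of 5 on Day 9, where 0% of 13688 genes were called, 0 of 5 on Day 17, against 0.351%, and 0 of 5 on Day 24, against 3.76%. Fcgr3 had the smallest unadjusted p of the members on Days 9 and 24. Its rise to Day 9 was smaller in responders by a log2 difference of -0.37 (p = 0.00891, edgeR adjusted p = 0.862), and its change to Day 24 lower by -0.37 (p = 0.00921, edgeR adjusted p = 0.109), and no other member had an unadjusted p under 0.05. DESeq2 called 0 of 5 on each day as well. The Day 9 difference for Fcgr1 was -0.44 (95% interval -0.89 to 0.016, edgeR adjusted p = 0.938), and that for Fcgr2b -0.0093 (95% interval -0.21 to 0.19, edgeR adjusted p = 1.00). With the number series as a covariate the Day 24 difference of Fcer1g passed, at -0.58 (edgeR adjusted p = 0.0196), against -0.30 without it (edgeR adjusted p = 0.299). On log2(TPM + 0.1) the Day 24 differences of Fcer1g and Fcgr3 had the other sign, at 0.43 and 0.32, with the median gene at 0.49. These differences and the response difference of Fcgr3 on Day 4 use the same Day 4 libraries.

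The ratio of each activating receptor to Fcgr2b was taken within a library, where the scaling of libraries cancels apart from the prior count of 2. In whole blood it is a ratio over all cells, B cells with Fcgr2b alone included, and not that of a single cell. As a ratio of TPM, the Day 4 response difference of Fcgr1 to Fcgr2b was 0.56, against 0.41 in log2 CPM. In log2 CPM, the Fcgr3 to Fcgr2b difference on Day 4 ran from -0.75 to 1.13 with a median of 0.12 in responders, and from -1.24 to 0.79 with a median of -0.33 in non-responders. The responders thus lay higher, with wide overlap. The 6 highest ratios were those of the 6 libraries named above for their high Fcer1g and low factors. Of these, 4 were of responders and 2 of non-responders, and Fcgr2b was low in them. The library of mouse R_7208, with a low factor of 0.4655, was not among them. The part of the low-factor libraries in the Day 4 ratio differences, pooled or within the series, was not tested. The group difference was 0.45 (permutation test, p = 0.0102, adjusted p = 0.122 over 12 tests of the response). For Fcgr1 to Fcgr2b it was 0.41 (permutation p = 0.0497, adjusted p = 0.149) and for Fcgr4 to Fcgr2b 0.36 (permutation p = 0.119, adjusted p = 0.286). On Day 17 the differences were 0.26 for Fcgr3 (permutation p = 0.0385, adjusted p = 0.149) and 0.31 for Fcgr4 (permutation p = 0.0477, adjusted p = 0.149). Within the series the Day 17 differences were smaller, 0.088 for Fcgr3 (permutation test, adjusted p = 0.652) and 0.17 for Fcgr4 (permutation test, adjusted p = 0.518), and Fcgr3 stood at -0.0016 in 3-digit mice. None of the 12 pooled differences passed. Within the number series the Day 4 differences were larger than in the pooled mice, 0.66 in 4-digit and 0.74 in 3-digit mice for Fcgr3, 0.48 and 0.74 for Fcgr1, and 0.70 and 0.66 for Fcgr4. A test of the difference within the series, added after seeing the data, with labels permuted within the series, gave 0.70 for Fcgr3 (permutation test, adjusted p = 0.00372) and 0.68 for Fcgr4 (permutation test, adjusted p = 0.0364) on Day 4. Both passed, whereas permuting within the series while keeping the pooled difference called none. For Fcgr1 it gave 0.59 (permutation test, adjusted p = 0.0626), and no ratio of the later days passed.

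The Fcgr1 ratio rose on Day 9 in non-responders and fell by Day 24 in both groups. In non-responders the Fcgr1 to Fcgr2b difference went from -2.97 ± 0.53 (SD, n = 29) on Day 4 to -2.10 ± 0.47 (SD, n = 30) on Day 9, a change of 0.87 log2 units. The permutation p of 1e-05 was the smallest that 100000 resamples can give, with an adjusted p of 0.00018 over 18 tests of change. The Fcgr3 ratio rose there by 0.30 (permutation test, adjusted p = 0.0239). This call was lost without mouse NR_309 and on the ratio of TPM, at 0.23 (permutation test, adjusted p = 0.17). In responders the Day 9 change was 0.48 for Fcgr1 (permutation test, adjusted p = 0.149) and -0.058 for Fcgr3 (permutation test, adjusted p = 0.721). On Day 24 the Fcgr1 ratio was below Day 4 in both groups, by -0.97 in responders (permutation test, adjusted p = 0.00522) and by -0.54 in non-responders (permutation test, adjusted p = 0.0018). The Fcgr3 ratio fell in responders by 0.51 on Day 24 (permutation test, adjusted p = 0.03), a call lost without mouse R_315 or mouse R_7206, and stood at -0.099 in non-responders (permutation test, adjusted p = 0.592). The highest Day 4 ratios of Fcgr3 in responders were those of the low-factor libraries of mice R_311, R_7210, R_7206 and R_315. The part of these libraries in the ratio changes of responders was not tested. No Fcgr4 ratio passed, with changes from -0.45 to 0.15. The same ratio changes passed when signs were flipped within mice as a replicate block. Cell type markers, those of B cells among them, moved over the same days as given above, and the part of these cells in the ratio changes was not tested.

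**Figure D4:**
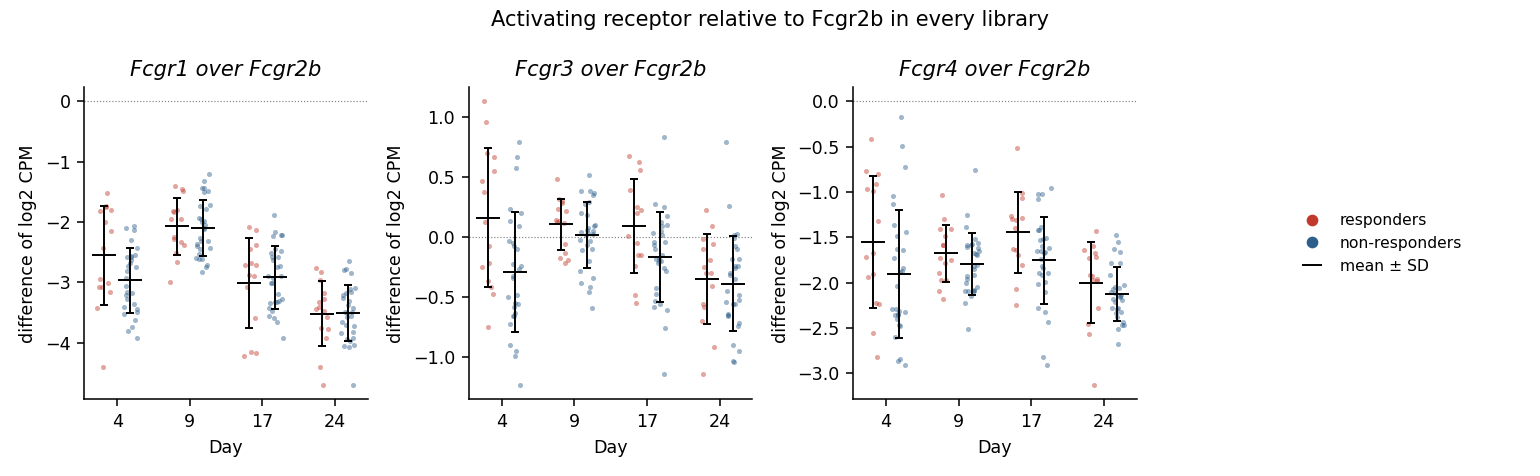
Log2 CPM of Fcgr1, Fcgr3 and Fcgr4 minus that of Fcgr2b by day, with one point per library and the mean with SD of each response group. The Fcgr1 ratio is highest on Day 9 (means -2.07 in responders and -2.10 in non-responders) and lowest on Day 24 in both groups (means -3.52 and -3.51).

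Summed per length, the activating receptors outweighed Fcgr2b. The TPM of Fcgr1, Fcgr3 and Fcgr4 together was 3.00 ± 1.54 times that of Fcgr2b in responders on Day 4 (SD, n = 15) and 2.12 ± 1.02 times in non-responders (SD, n = 29). On Day 24 it was 1.78 ± 0.424 (SD, n = 15) and 1.73 ± 0.525 (SD, n = 30). The sum was above Fcgr2b in 14 of 15 responders on Day 24, in 28 of 29 non-responders on Day 4 and in all libraries of the other groups. Fcgr3 made up 70.7% ± 3.64 of the activating TPM in responders on Day 4 and Fcgr1 5.78% ± 1.71 (SD, n = 15). Fcer1g exceeded the activating receptors that need it in each group, by 4.18 ± 1.60 times in responders (SD, n = 15) and 3.77 ± 0.860 times in non-responders on Day 4 (SD, n = 29), and by 2.98 ± 0.307 (SD, n = 15) and 2.73 ± 0.308 times on Day 9 (SD, n = 30). These sums are given as a description with no test.

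Whether mice with more of 1 member also had more of another was asked over the 45 mice, each as the mean deviation of its libraries from their group and day. Of 10 pairs, Fcgr3 and Fcer1g moved together most closely, with Pearson r = 0.606 and Spearman rho = 0.605 (permutation tests, adjusted p = 0.0002 each). Without the 2 mice farthest from the median of Fcgr3 r was 0.526, and it was 0.639 in the 18 mice with 4-digit numbers (adjusted p = 0.0258) and 0.555 in the 27 with 3-digit numbers (adjusted p = 0.0262). Fcgr2b ran the other way, with r = -0.433 and rho = -0.421 against Fcer1g (permutation tests, adjusted p = 0.0129 and 0.00978). That r was -0.442 without the 2 farthest mice, -0.602 in 4-digit mice (adjusted p = 0.0258) and -0.359 in 3-digit mice (adjusted p = 0.133). Fcgr1 went with Fcgr3 (r = 0.416, rho = 0.464, adjusted p = 0.0129 and 0.0059), Fcgr4 (r = 0.411, rho = 0.453, adjusted p = 0.0129 and 0.0059) and Fcer1g (r = 0.368, rho = 0.414, adjusted p = 0.0257 and 0.00978) by the same permutation tests. Without the 2 farthest mice these were 0.503, 0.411 and 0.433, and within the series none of them passed by Pearson r. Fcgr3 and Fcgr4 had r = 0.316 (adjusted p = 0.0569) and rho = 0.379 (adjusted p = 0.0178), with r = 0.608 in 4-digit mice (adjusted p = 0.0258) and 0.060 in 3-digit mice (adjusted p = 0.853) by permutation tests. Fcgr2b had r between 0.0064 and 0.067 with the activating receptors. Members of a library share its scaling, and Fcgr3 and Fcgr2b share reads. The low-factor Day 4 libraries with the highest Fcer1g had low Fcgr2b, and their part in these relations was not tested.

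**Figure D5:**
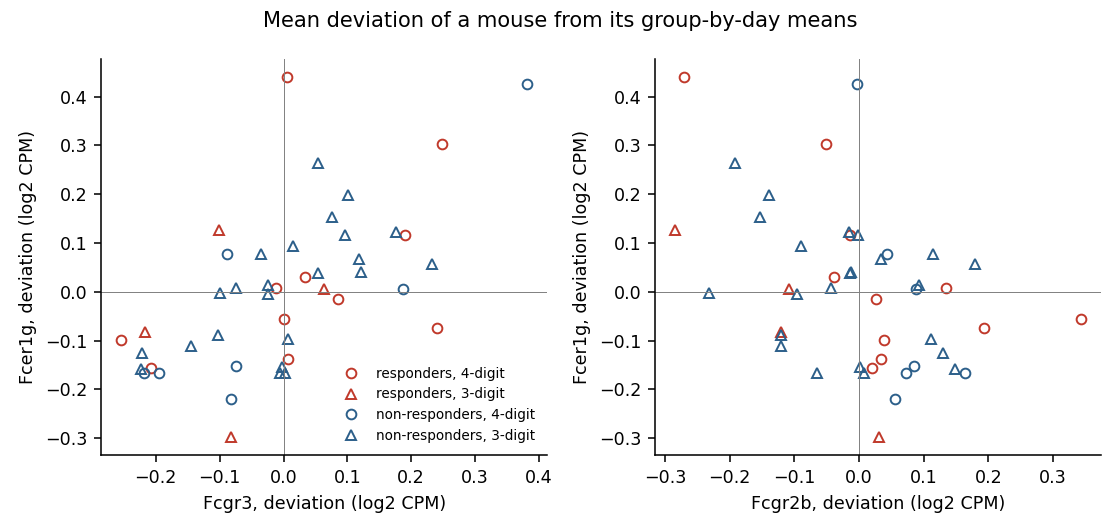
Mean deviation of each mouse from its group and day in log2 CPM, Fcer1g against Fcgr3 and Fcer1g against Fcgr2b, with one point per mouse and the number series marked. Fcer1g rises with Fcgr3 (r = 0.606) and falls with Fcgr2b (r = -0.433).

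For each member, the 3 genes with the most similar course over the 8 group means were named, by the root mean square difference of centred log2 CPM among 7633 genes. For Fcgr1 these were Ifi211 (0.134), Chil3 (0.139) and Ms4a6c (0.169). Ifi211 is an interferon-inducible gene, and Chil3 is also 1 of the classical monocyte markers used here. The course of Fcgr3 was nearest to C5ar1 (0.0336), the complement C5a receptor of myeloid cells, Pilra (0.0378) and Hk3 (0.046), a hexokinase of myeloid cells. Fcgr4 was nearest to Hip1 (0.0438), Pilrb2 (0.0601) and Prr5l (0.0649). For Fcgr2b they were Cpne3 (0.029), Gpr137b-ps (0.0341) and Zdhhc21 (0.0361). For Fcer1g they were Cfp (0.0646), which encodes properdin, Lgals1 (0.0657) and Prdx5 (0.0678). Among the members themselves, Fcgr3 and Fcgr4 were the most alike (0.0894) and Fcgr1 and Fcgr2b the least (0.522).

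The genes that carry the signal onward were followed as fixed lists, by counts of genes called with edgeR. In the Day 9 change of non-responders 50.8% of all genes were called and 23.3% were called higher, so the counts below stand beside a high share. Of these lists, 8 of 14 genes of activating signalling rose and 3 fell, with a median log2 change of 0.11 against -0.014 over all genes. Card9, an adaptor downstream of Syk, rose by 1.12 and Fgr, a Src family kinase of myeloid cells, by 0.82. Of inhibitory signalling 5 of 10 rose and 3 fell (median 0.11), among them the ITIM receptors Pirb, by 0.93, and Sirpa, by 0.86. Of the other receptors that pair with Fcer1g, 4 of 6 tested rose and 1 fell (median 0.95), with 2.06 for Clec4n and 1.64 for Clec4e, C-type lectins that sense fungi and damaged cells. Of the interferon gamma induced genes 7 of 9 tested rose and none fell (median 0.22), with 0.44 for the transcription factor Irf1 and 0.28 for Gbp3.

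Of the Fc receptors of other classes, 2 of 8 tested rose and 4 fell in non-responders on Day 9, with a median of -0.16, and Fcmr, the IgM receptor, fell by 0.67 and Fcer2a, the low-affinity IgE receptor of B cells, by 0.47. Of the other ITAM adaptors, Tyrobp rose by 0.57 and Cd247, the zeta chain of T and NK cells, fell by 0.45, with 1 of 3 higher and 2 of 3 lower. In responders on Day 9, where 27.7% of all genes were called, the counts were 5 higher and 2 lower of 14 for activating signalling, 4 and 1 of 10 for inhibitory signalling, 2 and 0 of 6 for receptors paired with Fcer1g, 1 and 4 of 8 for other Fc receptors, 1 and 2 of 3 for ITAM adaptors and 1 and 0 of 9 for interferon gamma induced genes. The response difference on Day 9, which called 13.4% of all genes, called 3 genes of these lists. Syk was lower in responders, by -0.097 (edgeR adjusted p = 0.0242), Dok1, which acts with Inpp5d, was higher by 0.19 (edgeR adjusted p = 0.00514) and Igtp, an interferon gamma induced GTPase, by 0.20 (edgeR adjusted p = 0.0328). No gene of the other pathway lists was called on that day. Values not called there were -0.065 for Btk, 0.20 for Ptpn11, 0.30 for Gp6, -0.28 for Clec4e, -0.094 for Fcrla, -0.069 for Fcrl1, 0.23 for Hcst, 0.12 for Tyrobp and -0.11 for Gbp3, with edgeR adjusted p from 0.0591 to 0.385.

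On Day 24, where 17.4% of all genes were called in responders and 48.7% in non-responders, the lists were counted in the same way. All 3 other ITAM adaptors fell in responders, with a median of -0.40 against -0.0096 over all genes, and 2 of 3 in non-responders (median -0.19 against 0.0093). Of the interferon gamma induced genes 4 of 9 fell in responders and none rose, and in non-responders 5 fell and 2 rose. Of activating signalling 2 of 14 fell in responders and none rose, and in non-responders 7 fell and 3 rose. Of the receptors paired with Fcer1g 2 of 6 were lower in the change of responders than in that of non-responders by the interaction test, which called 3.76% of all genes. No interaction was called for any of the other pathway lists on that day.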

How the data were processed

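The authors aligned the reads with STAR to mm10, per the submitters' processing notes, and deposited their estimated counts in 1 table and TPM in another. The counting tool and annotation are not given in the sources used here, and all 55450 gene IDs match GENCODE M21. Of the deposited estimated counts, 3.14% were not whole, and all were rounded. The deposited TPM values are scaled by the authors to 1 sum per library, haemoglobin included. No column was left unused (0) and 0 pairs of libraries were identical.

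Tests used edgeR 4.0.16 in R 4.3.3, with TMM scaling, filterByExpr, a quasi-likelihood fit and Benjamini-Hochberg adjustment over all genes tested, and a gene was called at an adjusted p of at most 0.05. Response groups were compared day by day. Changes from Day 4 were fitted with 4 days together in each response group, and their difference over all libraries. All 5 members passed the filter in every fit. Log2 CPM used a prior count of 2. Ratios and relations used two-sided permutation tests with 100000 resamples (Python 3.11.15, numpy 2.4.6, scipy 1.17.1, pandas 2.3.3). Alternatives used DESeq2 1.42.0, limma 3.58.1 on log2(TPM + 1) and log2(TPM + 0.1), Wilcoxon tests on TPM, other filters and scalings, the number series, single libraries or mice left out, and the mouse as a block. The tests were tested on simulated data.

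Libraries of a mouse come from 1 animal, so the mouse pairs them. For each member and pair of days, the correlation over mice of the deviations from the group means ran from -0.447 to 0.352. The fits without the block treat libraries as independent.

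Genes named are the 5 members, the 3 genes most like each in course, 2 genes of each pathway list with the smallest p in each of 2 comparisons (the Day 9 change in non-responders and the Day 9 response difference), and cell type markers. The members and lists were chosen with earlier results of these data known. Promoters came from RefSeq and coding sequences from GENCODE M21. One sequence motif is not reported here.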

Additional observations from a re-analysis of the deposited data

How the results depend on the processing

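Under the alternatives on counts, the fold threshold and TPM aside, 479 of 510 values of the 65 results for single genes kept their direction and their side of the threshold, and 19 changed sign. None of these 19 was called. The cause of the changes below was not tested, apart from the fold threshold, which by construction cannot add calls.

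Counts of members called were 1, 0, 0 and 0 for the response on the 4 days, 4, 3 and 2 for the changes in responders, 5, 4 and 2 in non-responders, and 0 for each difference of changes. A fold of at least 1.5 as well left 0 on Day 4, 1, 0 and 2 in responders and 2, 0 and 0 in non-responders. DESeq2 called 2 members on Day 4, the number series as a covariate called 2, and each series alone called 0. The covariate called 1 for the difference of changes on Day 24. With no filter on low counts, 1 was called on Day 17 in responders. Without the Day 24 library of mouse NR_7224, 1 was called for the response on Day 24. On log2(TPM + 1), 2 were called on Day 4 and 5 on Day 9, against 0 for each change in responders and 0 for Day 17 in non-responders. On log2(TPM + 0.1) these were 3, 5, 0 and 0, and Wilcoxon tests on TPM gave 3 on Day 4 and 5 on Day 9.

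In TPM the median gene moved by up to -0.62 on log2(TPM + 0.1) and -0.26 on log2(TPM + 1) between the response groups on Day 4, by -0.58 and -0.24 on Day 9, and by 0.49 and 0.22 in the difference of changes on Day 17. Values that changed sign on log2(TPM + 0.1) were as follows. For the response on Day 4 they were -0.26 for Fcgr1, -0.45 for Fcgr3, -0.51 for Fcgr4 and -0.39 for Fcer1g, on Day 9 -0.65 for Fcgr4 and -0.58 for Fcer1g, on Day 17 -0.049 for Fcer1g and on Day 24 -0.062 for Fcgr4. In responders they were 0.12 for Fcer1g on Day 9, 0.057 for Fcgr1 and 0.064 for Fcer1g on Day 17, and 0.034 for Fcgr4 on Day 24. In non-responders they were -0.0053 for Fcgr2b and -0.28 for Fcer1g on Day 17, and -0.34 for Fcgr3 and -0.18 for Fcgr2b on Day 24. For the differences of changes they were 0.11 for Fcgr2b on Day 9, 0.030, 0.46, 0.56 and 0.35 for Fcgr1, Fcgr3, Fcgr4 and Fcer1g on Day 17, and 0.12, 0.32, 0.44 and 0.43 on Day 24. On log2(TPM + 1), and in the same values with Wilcoxon tests for the response, they were -0.063, -0.34, -0.28 and -0.38 for Fcgr1, Fcgr3, Fcgr4 and Fcer1g on Day 4, -0.44 for Fcgr4 and -0.55 for Fcer1g on Day 9, -0.044 for Fcer1g on Day 17 and -0.039 for Fcgr4 on Day 24. In responders they were 0.11 for Fcer1g on Day 9, and 0.021 for Fcgr1 and 0.061 for Fcer1g on Day 17. In non-responders they were -0.043 for Fcgr2b and -0.27 for Fcer1g on Day 17, and -0.27 for Fcgr3 and -0.15 for Fcgr2b on Day 24. For the differences of changes they were 0.0096, 0.34, 0.32 and 0.33 for Fcgr1, Fcgr3, Fcgr4 and Fcer1g on Day 17, and 0.020, 0.23, 0.24 and 0.40 on Day 24. The Fcgr4 to Fcgr2b ratio of TPM in responders on Day 17 was -0.011.

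With the mouse as a replicate block the calls were those without it, apart from Fcgr1 on Day 24 in non-responders, at -0.30 (adjusted p = 0.0439), and 3 uncalled values changed sign, Fcer1g in responders on Day 9 at 0.038, Fcgr4 in non-responders on Day 24 at 0.0067 and the Fcgr2b difference of changes on Day 9 at 0.013. The series covariate gave 0.022 for Fcgr1 on Day 17, 0.045 for Fcgr3 on Day 24 and 0.15 for the Fcgr2b difference on Day 9. In 4-digit mice the response values that changed sign were 0.055 for Fcgr3 on Day 9, 0.15 for Fcgr1 on Day 17, and 0.067 for Fcgr1, 0.16 for Fcgr3, 0.058 for Fcgr2b and -0.067 for Fcer1g on Day 24, and correlations of -0.322 for Fcgr1 and -0.122 for Fcgr3 with Fcgr2b. In 3-digit mice they were -0.15 for Fcgr4 and -0.024 for Fcer1g on Day 9, and -0.037 for Fcgr3 and -0.097 for Fcer1g on Day 17. Without the Day 24 library of mouse NR_7224 they were 0.014 for Fcgr3 on Day 24 and -0.0028 for the Fcgr2b difference on Day 17. The relations over mice were rerun without that library after seeing the data, and the 10 pairs kept their direction, with 0.357 for Fcgr3 and Fcgr4 now past the threshold (adjusted p = 0.0259). With no filter, Fcer1g in responders on Day 9 was 0.0052.

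Leaving out 1 mouse at a time gave from 1 to 3 called members on Day 4, 0 to 1 on each of Days 9, 17 and 24 for the response, and 1 to 3 in responders on Day 17. A difference of ratios taken within the number series, added after seeing the data, called 2 ratios of the response against 0 without it, and gave -0.065 for the Fcgr1 ratio on Day 9, with the other sign. Permuting within the series while keeping the pooled difference called 0. Ratios called when mice were left out ranged from 0 to 2 for the response and from 1 to 3 for responders. Fcer1g joined Fcgr3 on Day 4 without any 1 of 8 mice, and the Fcgr3 call there was kept in all 45 fits. Values that changed sign ranged from -0.085 to 0.088 for Fcer1g and from -0.18 to 0.080 for Fcgr1 in responders on Days 9 and 17, and from -0.053 to 0.034 for Fcgr4 in non-responders on Day 24. For the response they ranged from -0.029 to 0.029 for Fcgr3 and from -0.027 to 0.069 for Fcgr4 on Day 9, and from -0.051 to 0.025 for Fcgr3 on Day 24. For the differences of changes they ranged from -0.070 to 0.035, -0.069 to 0.053 and -0.0088 to 0.063 for Fcgr2b on Days 9, 17 and 24, and from -0.081 to 0.039 for Fcgr4 on Day 17. For the ratios to Fcgr2b they ranged from -0.0094 to 0.099 for Fcgr1 in non-responders on Day 17, from -0.13 to 0.023 and -0.18 to 0.048 for Fcgr3 and from -0.017 to 0.21 for Fcgr4 in responders on Days 9, 17 and 17, from -0.024 to 0.090 and -0.064 to 0.075 for Fcgr1 and from -0.00077 to 0.097 for Fcgr3 in the response on Days 9, 24 and 24. The lowest counts were those of Fcgr1, from 3 in a library.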
